A study of Mus musculus with 12 samples.

Results

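KRAB zinc-finger gene clusters were described here through 4 windows of the mouse genome (build GRCm39) that hold such clusters: chr2:174000000-178500000, chr4:145000000-148000000, chr12:18000000-24500000 and chr13:65000000-68500000. The stretch chr2:174110000-174200000, which holds the imprinted Gnas locus and 31 peaks, was left out. A peak belonged to a window when its midpoint lay inside, and 5522 of the 336278 deposited peaks did. They comprised 3209 H3K9me3, 874 H3K4me3 and 1439 H3K27ac peaks. The windows span 17.41 Mb, which is 0.655% of the 2659.47 Mb between the first and last peak of each of chromosomes 1 to 19, X and Y. The windows were chosen by the gene clusters they hold and selected on measured values, their H3K9me3 density in these same libraries. The H3K9me3 of the windows against the rest of the genome, the overlap with and distance to H3K9me3, and the comparison of H3K9me3-rich bins are therefore descriptions with no test. Tests were made of H3K4me3 and H3K27ac in the windows against the rest, and of the genotypes, which the choice of windows by their level over all libraries did not compare.

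The libraries came from E14TG2a, a mouse embryonic stem cell line, cultured in serum medium supplemented with LIF, PD0325901 (a MEK inhibitor) and CHIR99021 (a GSK3 inhibitor). Cells were wild type (WT) or expressed ALKBH5, an RNA N6-methyladenosine demethylase, without its C-terminal intrinsically disordered region (Alkbh5 del-cIDR). H3K4me3 and H3K27ac were mapped with CUT&Tag and H3K9me3 with CUT&RUN, with 2 libraries per mark and genotype. The labels do not tell if replicate libraries are separate cultures or clones, so the p-values below measure the spread between libraries, which may be technical. An exact permutation test of 2 libraries against 2 cannot give a p below 0.333, and an exact sign-flip permutation test over 4 libraries cannot go below 0.125. The sign-flip tests of windows against the rest take the windows as fixed. They cannot tell how unusual such a difference is among stretches of the genome.

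KRAB zinc-finger proteins form a large, fast-evolving family of DNA-binding repressors, and their genes lie in tandem arrays that grew by duplication. The KRAB domain recruits TRIM28 (KAP1), which brings SETDB1, the methyltransferase that writes H3K9me3, and in embryonic stem cells this pathway silences retrotransposons. The gene arrays are themselves known to carry H3K9me3, a mark of heterochromatin, whereas H3K4me3 marks active promoters and H3K27ac active promoters and enhancers. No gene annotation of build GRCm39 was used here, so no peak was assigned to a gene, and whether a given peak lies on a zinc-finger gene was not analysed. Pluripotency markers were not checked for the same reason.

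One H3K9me3 library stood apart. WT replicate 1 had 21705 peaks covering 10.1 Mb on these chromosomes, against 36766 to 43785 peaks covering 26.7 to 35.2 Mb in the other H3K9me3 libraries. The main comparisons of genotypes in H3K9me3, the H3K9me3-rich bins and the overlap with H3K9me3 regions are given with and without it. Comparisons of filtered, shortened or otherwise merged lists are given only with it. The H3K4me3 lists held 19033 to 19881 peaks. The H3K27ac lists held 28853 and 33460 peaks in del-cIDR and 25804 and 23407 in WT. Read depth is unknown, because peak lists hold no read counts.

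H3K9me3 was dense in 3 of the 4 windows and moderately so in the fourth. Over the 4 windows, H3K9me3 peaks covered 28.65 and 35.5 kb per Mb in del-cIDR replicates 1 and 2, and 14.51 and 33.56 kb per Mb in WT replicates 1 and 2. The rest of the genome had 9.904, 13.1, 3.735 and 11.46 kb per Mb in the same order. Each library was therefore 2.71 to 3.88 times denser in the windows than outside them. WT replicate 1 was the lowest in both places and had the highest ratio.

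The chromosome 4 window carried the most H3K9me3 in every library, at 44.31 and 50.29 kb per Mb in del-cIDR and 28.44 and 52.33 in WT. It exceeded the rest of the genome by 4.47, 3.84, 7.61 and 4.57 times. The chromosome 12 window followed, with 32.59 and 40.11 kb per Mb in del-cIDR and 14.9 and 37.68 in WT, which is 3.06 to 3.99 times the rest. Next came the chromosome 13 window, with 27.35 and 33.44 kb per Mb in del-cIDR and 13.05 and 30.7 in WT, or 2.55 to 3.49 times the rest. The chromosome 2 window was the sparsest, with 13.2 and 20.27 kb per Mb in del-cIDR and 5.648 and 16.99 in WT, only 1.33 to 1.55 times the rest. All 4 libraries ranked the windows in this order, although the range over libraries of each window overlapped that of the next.

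**Figure D1:**
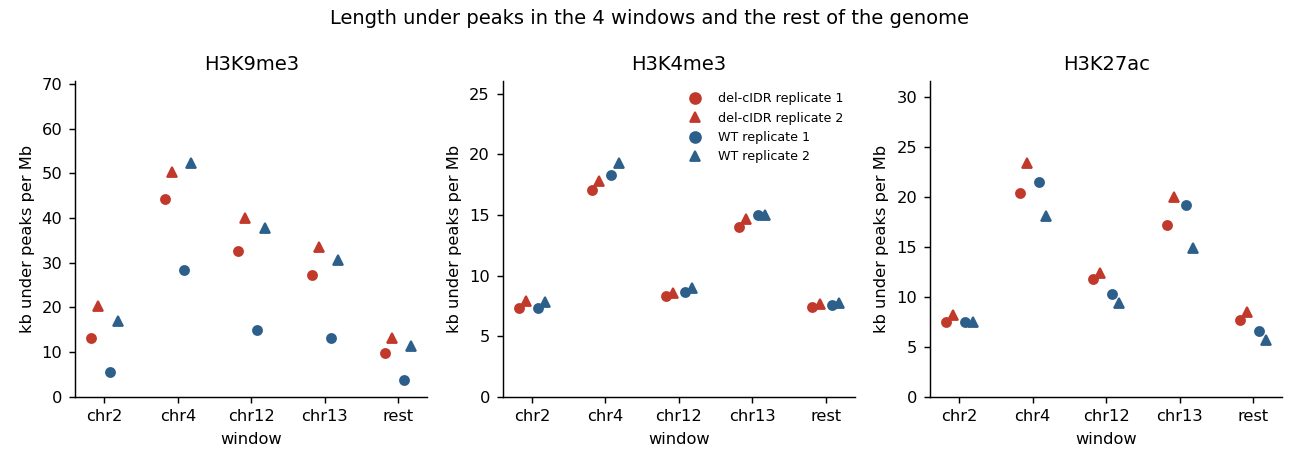
Length under peaks (kb per Mb, linear axes) of each mark in the 4 windows and in the rest of the genome; each point is 1 library, red for del-cIDR and blue for WT. H3K9me3 is highest in the chromosome 4 window (28.44 to 52.33 kb per Mb), and H3K4me3 and H3K27ac are also highest there, while the chromosome 2 window has H3K4me3 at the level of the rest.

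H3K9me3 in the windows came as many short peaks and not as a few wide ones. Median peak width over the 4 windows was 428 and 557 bp in del-cIDR and 261 and 414 bp in WT, whereas in the rest of the genome it was 596 and 734 bp in del-cIDR and 366 and 568 bp in WT. Taken over all peaks, those inside were thus 0.713 to 0.759 times as wide as those outside, in every library. The higher density came from their number, which was 46.7, 47.96, 34.23 and 55.43 peaks per Mb, 3.18 to 4.28 times that of the rest. Successive H3K9me3 peaks lay a median of 5863 to 8157 bp apart in the windows and 26024 to 49670 bp apart elsewhere. Gaps under 2 kb made up 23.6% and 23.0% in del-cIDR and 22.1% and 28.7% in WT, against 9.31% to 11.8% elsewhere. Whether closely spaced peaks are parts of wider domains was not tested.

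Narrow peaks were a feature of the chromosome 4, 12 and 13 windows, where the median width was 0.617 to 0.786 times that of the rest in every library. The chromosome 2 window differed. Its median widths of 495, 681.5, 492 and 482 bp were 0.831, 0.928, 1.34 and 0.849 times those of the rest, so WT replicate 1 went the other way there. Peaks of 2 kb or more were few. They made up 3.08% and 5.63% of the window peaks in del-cIDR and 0.671% and 3.01% in WT, close to the 2.66%, 5.22%, 0.294% and 2.71% of the rest.

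The short window peaks ranked high in enrichment. The authors' fold enrichment of each peak was ranked within its own list, and the median window peak stood at percentile 80.5 and 79.7 in the del-cIDR lists and 80.7 and 78.6 in the WT lists. It was highest for the chromosome 13 window, at 91.8, 91.4, 86.8 and 86.6. In the chromosome 4 window it was 81.3 to 83.9 and in the chromosome 12 window 77.0 to 80.0. Both del-cIDR libraries stood above both WT libraries in the chromosome 13 and 4 windows (exact permutation test, p = 0.333 for each). That is the smallest p that 2 libraries against 2 allow. Peaks of the chromosome 2 window stood at 47.2, 58.6, 67.1 and 48.1, around the middle of their lists. Among the 10% of peaks with the highest fold in each list, the median width in the windows was 234, 306, 193 and 232 bp. In the rest it was 278.5, 357.5, 187 and 278 bp, so short peaks of high fold were not particular to the windows.

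**Figure D2:**
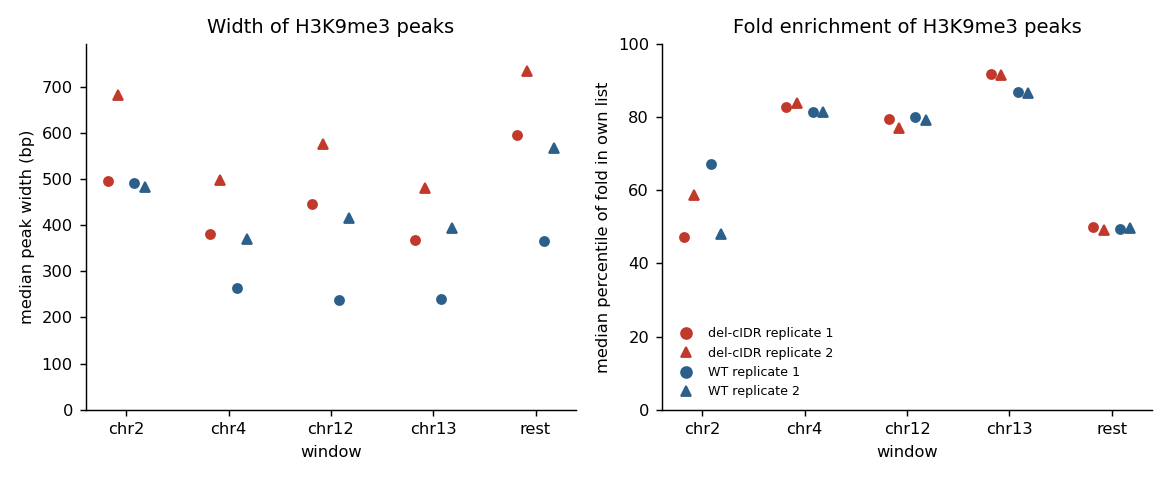
Median width of H3K9me3 peaks (bp, left) and median percentile of their fold enrichment within their own list (right), by window and in the rest of the genome; each point is 1 library. Peaks of the chromosome 4, 12 and 13 windows are narrower than those of the rest in each library and stand at percentiles 77.0 to 91.8, while those of the chromosome 2 window stand at 47.2 to 67.1.

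H3K9me3 peaks with a high −log10 q were over-represented in these windows, although most of them lay elsewhere. The highest folds also lay outside. The maximum was 39.27 and 36.63 in del-cIDR and 42.31 and 40.41 in WT in the rest. In the windows it was 14.19, 17.24, 13.59 and 14.09 in the same order. Peaks with a −log10 q of 5 or more numbered 779, 1086, 412 and 856 in the 4 lists, and 132, 165, 55 and 141 of them lay in the windows. That is 16.9% and 15.2% of the strong peaks in del-cIDR and 13.3% and 16.5% in WT. They held 21.7%, 19.21%, 14.24% and 18.82% of the bases under such peaks. Their median width was 291.5, 463, 228 and 259 bp, above the 227, 250, 204 and 230.5 bp of all such peaks. The chromosome 4 window alone held 58, 64, 25 and 55 strong peaks, and the chromosome 2 window held 3, 4, 0 and 1.

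H3K9me3 was uneven along each window. In bins of 0.5 Mb, 6 of the 10 bins with the highest mean H3K9me3 among 5181 bins of the genome lay in the windows, 4 of them on chromosome 4 and 2 on chromosome 12. The bin that starts at 147.5 Mb of chromosome 4 ranked first, with 35.2 and 35.5 kb under peaks in del-cIDR and 16.7 and 44.3 kb in WT. Within the same window the bin at 145.5 Mb held only 5.41, 5.73, 3.54 and 6.72 kb, and it was as poor in the other marks, with 1.29 to 1.41 kb of H3K4me3 and 0.581 to 1.17 kb of H3K27ac. In the chromosome 2 window most H3K9me3 lay between 176.5 and 178.0 Mb, and the bin at 177.0 Mb held 23.3, 31.1, 8.74 and 25.8 kb. Its bin at 174.0 Mb, shortened by the stretch left out, held none in any library, and the bin at 175.5 Mb had no peak of any mark. The chromosome 13 window had most of its H3K9me3 in the bins at 66.0, 66.5 and 68.0 Mb, with means of 17.4, 20.9 and 21.8 kb. Its bins at 65.5 and 67.5 Mb held means of 9.96 and 10.6 kb.

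Window borders did not always fall where H3K9me3 changed. The first bin of the chromosome 4 window had a mean of 27.3 kb of H3K9me3 and the bin just outside it 4.19 kb, and at the other end the means were 32.9 and 0.71 kb. On chromosome 12 the bin just before the window still held 13.2 kb, against 26.5 kb in the first bin inside. The borders of the chromosome 2 window and the start of the chromosome 13 window had means of at most 5.74 kb on both sides. At the chromosome 13 start the means were 5.52 kb inside and 5.74 kb outside. Both were above 3.97 kb, the median of the bins elsewhere that hold under 12.6 kb.

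**Figure D3:**
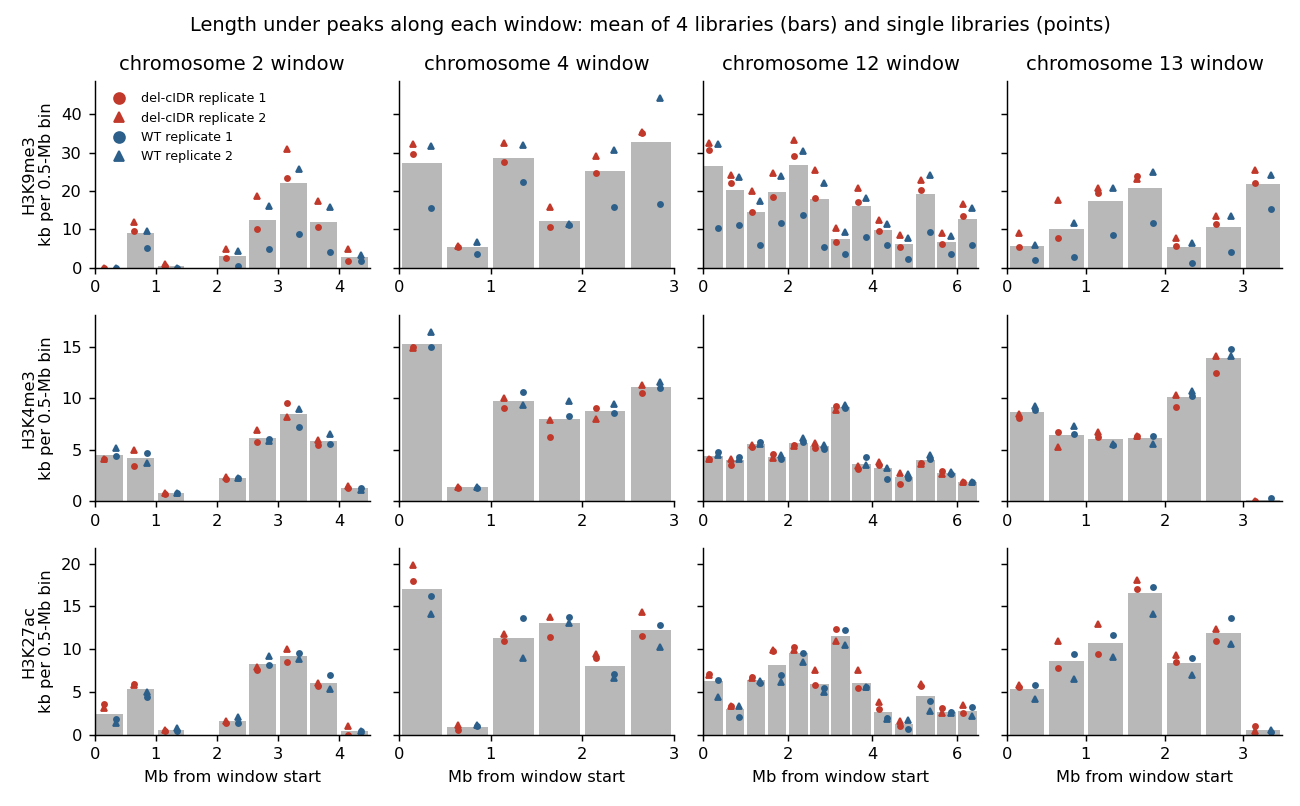
Length under peaks in consecutive 0.5-Mb bins along each window (horizontal axis, Mb from the window start), for H3K9me3 (top), H3K4me3 (middle) and H3K27ac (bottom); bars are the mean of 4 libraries and points the single libraries. Bins rich in H3K9me3 mostly also hold H3K4me3 and H3K27ac, except the last bin of the chromosome 13 window, with 15.4 to 25.5 kb of H3K9me3 and at most 0.35 kb of H3K4me3.

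H3K4me3, which the rule did not use, was also denser in the windows. It covered 10.73 and 11.22 kb per Mb in del-cIDR and 11.26 and 11.67 in WT, against 7.386, 7.675, 7.566 and 7.698 kb per Mb in the rest. All 4 libraries were higher inside, by 1.45 to 1.52 times. With the windows taken as fixed, this gave the smallest p that 4 libraries allow (exact sign-flip permutation test, two-sided, p = 0.125). The excess was largest in the chromosome 4 window, at 17.07, 17.81, 18.29 and 19.29 kb per Mb, or 2.31 to 2.51 times the rest. The chromosome 13 window reached 1.9 to 1.99 times and the chromosome 12 window 1.12 to 1.17 times, each in 4 of 4 libraries (exact p = 0.125 for each). The chromosome 2 window had 7.334, 7.895, 7.308 and 7.801 kb per Mb, and its ratio of 0.966 to 1.03 was above the rest in 2 of 4 libraries (exact p = 1.0).

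Promoter-type marks in the arrays were compact and strong. The median H3K4me3 peak of the windows was 812, 848.5, 779 and 856 bp wide, 0.803 to 0.881 times that of the rest in 4 of 4 libraries (exact p = 0.125). The chromosome 12 window was the exception, with ratios of 0.972 to 1.13. In fold enrichment the median window peak stood at percentiles 80.2 to 82.4 of its list. The chromosome 2 window, weakest in H3K9me3, had H3K4me3 peaks at percentiles 95.1, 85.3, 88.7 and 87.6. These were the highest of the 4 windows in 3 of 4 libraries, and in WT replicate 2 the chromosome 13 window stood higher, at 89.1. Its peak region chr2:176897282-176898543 had folds of 17.6, 17.6, 14.0 and 17.0, at percentiles 91.4 to 99.5, and an H3K27ac peak in all 4 libraries of that mark.

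H3K27ac was likewise denser in the windows. They held 13.25 and 14.74 kb per Mb in del-cIDR and 13.3 and 11.49 in WT, against 7.644, 8.495, 6.585 and 5.65 in the rest, so each library was 1.73 to 2.03 times denser inside (4 of 4 libraries, exact p = 0.125). The ratio was 2.67 to 3.26 in the chromosome 4 window, 2.25 to 2.91 in the chromosome 13 window and 1.46 to 1.65 in the chromosome 12 window, each in 4 of 4 libraries. In the chromosome 2 window it ran from 0.962 to 1.33, above the rest in both WT libraries and in neither del-cIDR library (exact p = 0.5). Peak widths did not differ from the rest beyond the spread between libraries over the 4 windows (ratios 0.961 to 1.04, exact p = 0.5). In the chromosome 13 window they were below the rest in 4 of 4 libraries (0.876 to 0.98, exact p = 0.125).

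The windows were then set beside other sequence rich in H3K9me3, as a description with no test. Of the 34 window bins with any peak, the 17 at or above their median of 12.6 kb of H3K9me3 were set beside the 202 bins elsewhere that reach the same level. These other bins held a mean of 2.21 and 2.32 kb of H3K4me3 in del-cIDR and 2.3 and 2.34 kb in WT, whereas the window bins held 6.03 and 6.07 kb in del-cIDR and 6.16 and 6.31 kb in WT. The window bins exceeded them 2.62 to 2.74 times in 4 of 4 libraries. For H3K27ac the window bins held 8.34, 9.3, 8.1 and 6.87 kb and the other bins 3.22, 3.59, 3.12 and 2.66 kb, a ratio of 2.59 to 2.6 in 4 of 4 libraries. The mean log2 ratio was 1.42 for H3K4me3 and 1.37 for H3K27ac, and 1.57 and 1.43 when the H3K9me3 level of a bin was taken without WT replicate 1.

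No H3K4me3 peak in any library was found in 51 of the 202 other dense bins (25.2%). That share was near the 25.3% of the 4999 remaining bins, so it was not particular to dense bins. Each of the 17 window bins, in contrast, had at least 1 H3K4me3 peak. The exception in kind was the bin at 68.0 Mb of chromosome 13, with 22.2, 25.5, 15.4 and 24.1 kb of H3K9me3 but a single H3K4me3 peak of 0.35 kb in WT replicate 1, and 0.303 to 0.985 kb of H3K27ac. It holds chr13:68208285-68212388 and chr13:68220161-68223454, the 2 H3K9me3 regions of that window with the most bases under peaks in all 4 libraries, and neither overlapped H3K4me3 or H3K27ac. The window bins were richer in H3K9me3 than the other dense bins (median 20.9 against 14.5 kb). Gene density was not compared here.

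**Figure D4:**
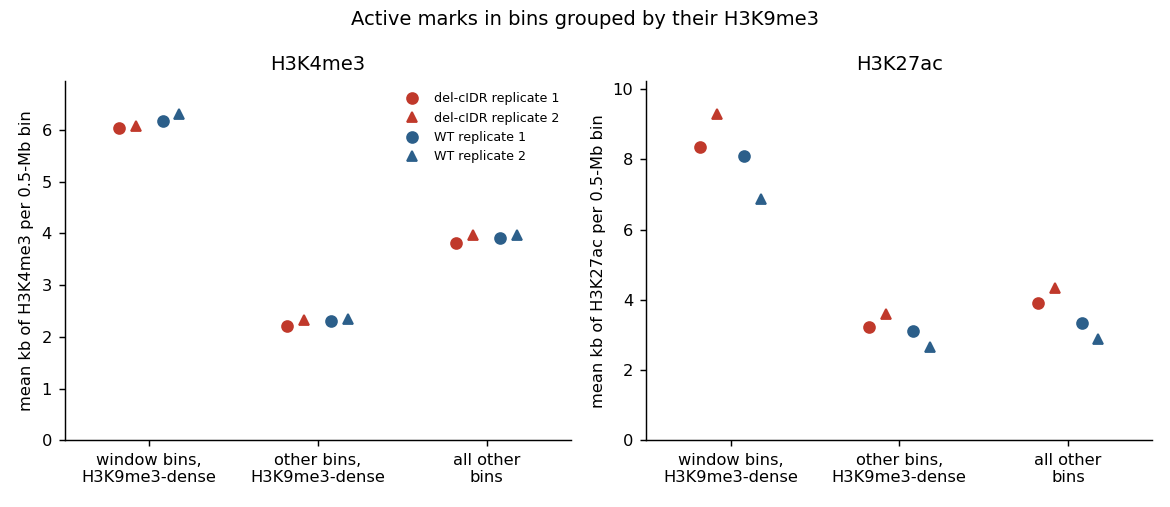
Mean length under H3K4me3 (left) and H3K27ac (right) peaks per 0.5-Mb bin, for the 17 window bins with at least 12.6 kb of H3K9me3, the 202 other bins at that level and the 4999 remaining bins; each point is 1 library. The window bins hold 6.03 to 6.31 kb of H3K4me3, the other dense bins 2.21 to 2.34 kb and the remaining bins 3.81 to 3.97 kb.

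Active marks in the arrays lay beside H3K9me3 more than on it. The median distance from an H3K4me3 peak to the nearest H3K9me3 region found in at least 2 libraries was 8237, 8385, 8511 and 8308 bp in the windows and 56070 to 56564 bp elsewhere. It was 2272, 3435, 4353 and 4341 bp in the chromosome 4 window and 13005 to 13142 bp in the chromosome 2 window. For H3K27ac peaks it was 6792 to 7509 bp in the windows and 48772 to 50040 bp elsewhere. These distances depend on H3K9me3 density and carry no test.

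Direct overlap was the exception for H3K4me3. In the windows 12, 10, 10 and 10 H3K4me3 peaks overlapped such an H3K9me3 region, or 5.61% and 4.67% in del-cIDR and 4.44% and 4.52% in WT, against 1.21% to 1.7% in the rest. Most of these were in the chromosome 4 window, with 8, 7, 7 and 6 peaks (9.09% to 13.1%), and without that window the mean difference from the rest fell from 3.37 to 0.805 percentage points. With H3K9me3 regions built without WT replicate 1 the difference was 3.44 percentage points. The overlap was 2.66 to 4.65 times that of the rest, while the windows held 2.75 times as much H3K9me3 region length per Mb.

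H3K27ac overlapped H3K9me3 more often than H3K4me3 did. The shares were 11.1%, 12.7%, 12.0% and 12.2% in the windows and 2.11% to 2.39% in the rest, a ratio of 5.04 to 5.82. The mean difference was 9.79 percentage points, and 9.05 with H3K9me3 regions built without WT replicate 1. In the chromosome 4 window 19.8% to 23.4% of H3K27ac peaks overlapped H3K9me3, in the chromosome 13 window 10.1% to 13.8%, and in the chromosome 12 window 4.55% to 5.5%. Of the 39, 49, 44 and 41 overlapping H3K27ac peaks in the windows, 7, 7, 7 and 6 also overlapped an H3K4me3 region (14.3% to 17.9%). In the rest that share was 17.4% to 23.7%, so lying away from H3K4me3 was not particular to the windows. An example in the windows is the region chr13:66858587-66860139, with H3K27ac folds of 5.98, 7.15, 6.34 and 6.41, no H3K4me3 peak, and an H3K9me3 peak in 3 of 4 libraries.

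The H3K27ac overlap was also higher than in other dense bins. Among the dense bins just described, 15.3%, 16.7%, 16.4% and 17.3% of H3K27ac peaks in window bins overlapped H3K9me3, against 8.41% to 9.36% in the other dense bins. H3K9me3 regions covered 35.4 kb per window bin and 26.9 kb per other dense bin. For H3K4me3 the same shares were 9.65%, 8.33%, 7.69% and 7.02% against 5.42% to 6.37%, resting on 8 to 11 window peaks per library.

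H3K4me3 and H3K27ac coincided more often in the windows, a comparison that does not use H3K9me3. H3K27ac regions overlapped 75.2% and 74.8% of window H3K4me3 peaks in del-cIDR and 73.3% and 75.6% in WT, against 59.0% to 60.2% in the rest. The mean difference was 15.1 ± 1.06 percentage points (SD, n = 4 libraries, 4 of 4 higher, exact sign-flip permutation p = 0.125). It was largest in the chromosome 2 window, where 83.8% to 89.5% overlapped, and smallest in the chromosome 4 window, with 63.9% to 65.6%. In the other direction 43.4% to 45.7% of window H3K27ac peaks overlapped H3K4me3, against 39.1% to 42.3% in the rest (4 of 4 higher, exact p = 0.125). The chromosome 12 window did not show that excess, at 38.0% to 41.3% (exact p = 0.625).

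Merging the peaks of the 4 libraries of a mark gave 1220 H3K9me3, 255 H3K4me3 and 563 H3K27ac regions in the windows. Regions found in all 4 libraries made up 31.7% of the H3K9me3, 73.3% of the H3K4me3 and 34.3% of the H3K27ac regions, against 23.3%, 68.1% and 26.6% in the rest. Of the 187 such H3K4me3 regions, 109 overlapped only an H3K27ac region also found in all 4 libraries, 6 only such an H3K9me3 region, 1 both and 71 neither. The share on H3K27ac was 58.8% in the windows and 41.5% in the rest. The share on H3K9me3 was 3.74% in the windows and 0.283% in the rest. By window it was 9.62% on chromosome 4, against 0.0%, 2.17% and 1.85% on chromosomes 2, 12 and 13.

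A few regions show these arrangements. The H3K9me3 region in all libraries with the most bases under peaks was chr4:145170777-145176677, covered over 5110 and 4464 bp in del-cIDR and 2800 and 4859 bp in WT. It was broad but weak, with folds of 1.96, 1.88, 2.39 and 2.03, at the bottom of each list. Before it, chr4:145158681-145161436 carried H3K4me3 over 2391, 2748, 2359 and 2360 bp together with H3K27ac in all 4 libraries, and it overlapped an H3K9me3 peak in del-cIDR replicate 2 and WT replicate 2. The chromosome 12 region chr12:19718313-19720879 carried H3K27ac over 2548, 2269, 2087 and 1692 bp, with folds of 7.43, 9.07, 6.57 and 7.97, and no H3K4me3 or H3K9me3 peak.

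Of the 5 sites named where H3K4me3 and H3K9me3 regions of all 4 libraries met, 4 overlapped in part. The regions are merged over libraries, and at these sites H3K9me3 peaks of only 1 to 3 libraries reached the H3K4me3 region. At chr4:147533325-147535119 H3K4me3 had folds of 9.66, 8.71, 9.68 and 10.2, and the H3K9me3 region chr4:147531505-147533592, with folds of 3.33, 3.33, 3.49 and 2.82, ran into its start. At chr4:147952215-147953509, with H3K4me3 folds of 11.0, 10.9, 10.7 and 8.46, an H3K9me3 region began near its end. An H3K9me3 peak reached that H3K4me3 region in WT replicate 2 only. In contrast the H3K9me3 region chr13:66098168-66098507 lay wholly within the H3K4me3 region chr13:66098090-66098832. There H3K4me3 had folds of 11.0, 11.8, 12.9 and 13.3, and H3K9me3 folds of 5.9, 7.43, 4.16 and 6.38.

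The comparison of genotypes asks whether loss of the disordered region of ALKBH5 goes with a different chromatin state of these arrays. No difference between genotypes could pass a threshold of 0.05 with 2 libraries a group. H3K9me3 covered 32.08 ± 4.84 kb per Mb of window in del-cIDR (SD, n = 2) and 24.04 ± 13.5 in WT (SD, n = 2) (exact permutation test, p = 0.667). The groups overlapped, and the log2 ratio of 0.42 turned to -0.07 without WT replicate 1. As a share of all bases under H3K9me3 peaks, the windows held 1.87% and 1.754% in del-cIDR and 2.497% and 1.892% in WT. The del-cIDR libraries were lower (log2 ratio -0.28, exact p = 0.333), but 1 library decided the size, since the ratio was -0.06 without WT replicate 1. Among peaks with a −log10 q of 5 or more the direction reversed, with a log2 ratio of 0.31 (exact p = 0.333). There the windows held 21.7% and 19.21% in del-cIDR and 14.24% and 18.82% in WT. The lowest share was that of WT replicate 1, which had only 412 such peaks. WT replicate 2 lay near del-cIDR replicate 2.

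Window H3K9me3 peaks were wider in del-cIDR, at 428 and 557 bp, than in WT, at 261 and 414 bp (exact p = 0.333). The rest of the genome had the same order, with 596 and 734 bp against 366 and 568 bp. The log2 ratio of the means was 0.545 in the windows and 0.51 in the rest. Without WT replicate 1 it was 0.25 in the windows and 0.227 in the rest.

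H3K4me3 showed small differences. Its share of covered bases in the windows was 0.948% and 0.954% in del-cIDR and 0.971% and 0.988% in WT, a log2 ratio of -0.04 with groups that did not overlap (exact p = 0.333). The chromosome 4 window had the largest difference, with 0.26% and 0.261% against 0.272% and 0.282% (log2 ratio -0.09, exact p = 0.333). The peak number was 214 and 214 in del-cIDR and 225 and 221 in WT.

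The H3K27ac shares of the genotypes did not overlap. The windows held 1.13% of the covered bases in each del-cIDR library and 1.314% and 1.322% in the WT libraries, a log2 ratio of -0.22 (exact p = 0.333). The del-cIDR libraries were below both WT libraries in each of the 4 windows. In kb per Mb of window, however, the libraries overlapped, with 13.25 and 14.74 in del-cIDR and 13.3 and 11.49 in WT (log2 ratio 0.175, exact p = 0.667). Outside the windows del-cIDR had more H3K27ac, with 7.644 and 8.495 against 6.585 and 5.65 kb per Mb (log2 ratio 0.40, exact p = 0.333). The smaller share in del-cIDR went with longer lists, and the length under H3K27ac peaks in the windows was not smaller. When all lists were limited to the 23407 peaks of the shortest, the shares were 1.152% and 1.238% in del-cIDR and 1.336% and 1.322% in WT.

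**Figure D5:**
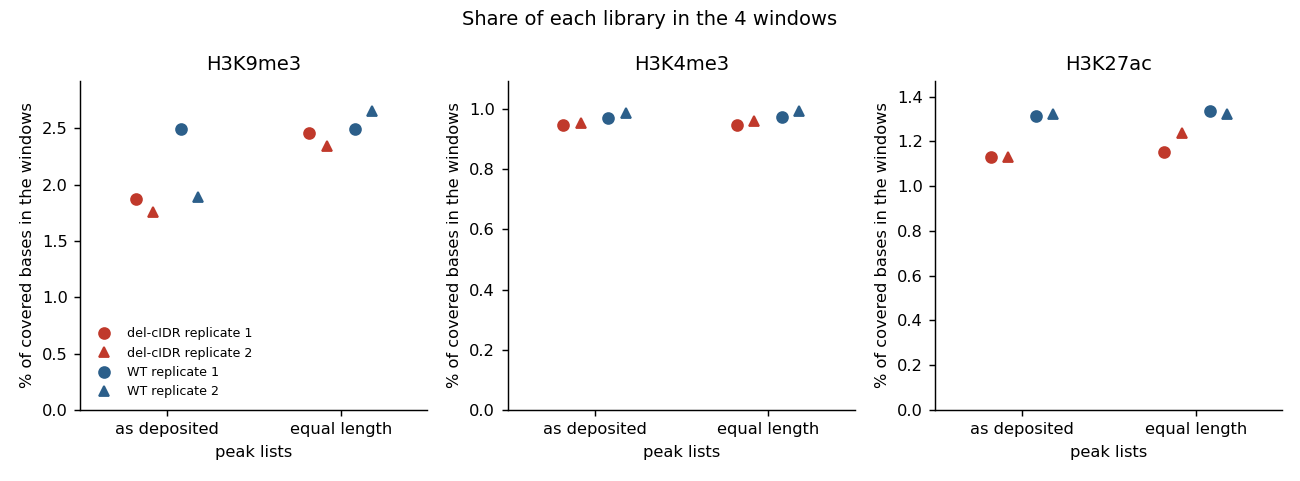
Share of each library's bases under peaks that lies in the 4 windows (%), for the lists as deposited and for lists limited to the length of the shortest of the mark; each point is 1 library. The H3K27ac shares of the del-cIDR libraries, 1.13% each as deposited, lie below the WT shares of 1.314% and 1.322%, and the H3K9me3 share of WT replicate 1 is high only in the lists as deposited.

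By bins, the share of covered H3K27ac bases was lower in both del-cIDR than in both WT libraries in 19 of 34 window bins (55.9%), against 21.9% of the 4556 bins of the genome, and higher in 4 (11.8%), against 21.6%. With lists of equal length it was lower in 14 of 34 (41.2%), against 21.7%. The lower bins comprised 5 of 8 in the chromosome 2 window, 5 of 6 in the chromosome 4 window, 4 of 13 in the chromosome 12 window and 5 of 7 in the chromosome 13 window. For H3K9me3, 9 of 33 bins (27.3%) were lower in del-cIDR, against 17.3% of all bins, and 4 (12.1%) higher, against 21.4%. All 9 lay in the chromosome 4 and 12 windows. WT replicate 1 had only 412 H3K9me3 peaks with a −log10 q of 5 or more. Among such peaks of all 4 libraries the split turned, with 2 of 28 window bins lower (7.14%), against 5.62%. Another 10 were higher (35.7%), against 11.5%. Without WT replicate 1, where both del-cIDR libraries were set against 1 WT library, 13 of 33 were lower (39.4%), against 35.9%, and 6 higher (18.2%), against 33.9%. For H3K4me3, 9 of 34 (26.5%) were lower, against 24.4%, and 3 (8.82%) higher, against 22.0%. Neighbouring bins of 1 library are not independent, and no test was made over bins.

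Regions with a peak in both libraries of 1 genotype and neither of the other were few. For H3K9me3, 37 of 1220 window regions (3.03%) were specific to del-cIDR, against 4.51% of all regions, and 23 (1.89%) to WT, against 0.955%. Without WT replicate 1 the counts were 50 (4.26%, against 5.73%) and 186 (15.8%, against 18.9%), so the WT share was then below the background. At a −log10 q of 5 or more, with all 4 libraries, the counts were 23 of 236 (9.75%, against 6.88%) for del-cIDR. For WT the count was 1 (0.424%, against 1.04%), the other way round from the lists as deposited. For H3K4me3, 1 of 255 (0.392%) was specific to del-cIDR, against 2.08%, and 8 (3.14%) to WT, against 2.84%. For H3K27ac, 22 of 563 (3.91%) were specific to del-cIDR, against 6.42%, and 19 (3.37%) to WT, against 1.83%. With H3K27ac lists of equal length the counts were 14 (2.8%, against 4.67%) for del-cIDR and 28 (5.6%, against 3.3%) for WT. In the lists as deposited, the share of regions specific to del-cIDR was below the background for each mark. Both lists of H3K27ac peaks in del-cIDR were longer than those in WT, and the effect of list length on the H3K9me3 split was tested only by limiting the lists, which gave 45 regions for del-cIDR (4.27%, against 4.36%) and 34 for WT (3.22%, against 3.06%), both near the background.

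On chromosome 12, chr12:18231472-18231686 and chr12:23587839-23588059 had H3K9me3 in both del-cIDR libraries only, with folds of 6.7 and 6.7 and of 5.81 and 6.71, over 184 to 221 bp. The WT-specific H3K9me3 region chr12:18223785-18223966, with folds of 5.23 and 6.3, lies just before the first of these. The only del-cIDR-specific H3K4me3 region was chr2:176986024-176986620, with folds of 6.39 and 5.43 at percentiles 27.2 and 19.7. In WT, H3K4me3 at chr4:147782618-147783300 had folds of 7.69 and 8.8, and H3K27ac was there in both del-cIDR libraries and WT replicate 1.

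Some of the named H3K27ac regions specific to a genotype lay at H3K4me3 peaks that both genotypes shared. Others had no H3K4me3 peak, such as chr4:146509599-146510131 in WT only and chr12:23205886-23206359 in del-cIDR only. The share among all regions specific to a genotype was not counted, and 43.4% to 45.7% of all window H3K27ac peaks overlapped H3K4me3. At chr13:66098195-66098798, the site where H3K9me3 lies within H3K4me3, H3K27ac was found in both WT libraries, with folds of 6.3 and 7.21, and in neither del-cIDR library, while both other marks were found in all 4 libraries. At chr13:66044891-66045251 the reverse held: H3K27ac had folds of 9.52 and 6.92 in del-cIDR and no WT peak, with H3K4me3 in all 4 libraries. On chromosome 2, chr2:174305419-174305997 had H3K27ac in del-cIDR only (folds 10.2 and 6.53) and chr2:176522741-176523102 in WT only (7.81 and 4.9), again both with H3K4me3 in all 4 libraries.

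Regions found in all 4 libraries were also compared by the rank of their fold. H3K9me3 ranked lower in both del-cIDR than in both WT libraries in 66 of 387 window regions (17.1%), against 18.4% of all such regions, and higher in 72 (18.6%), against 17.9%. Without WT replicate 1 it ranked lower in 165 of 548 (30.1%), against 34.9%, and higher in 208 (38.0%), against 34.5%. H3K4me3 ranked lower in 35 of 187 (18.7%), against 19.4%, and higher in 45 (24.1%), against 19.4%. H3K27ac ranked lower in 45 of 193 (23.3%), against 20.5%, and higher in 37 (19.2%), against 19.8%. These shares lay near the background, and the median difference in rank over the window regions, del-cIDR minus WT, was 0.104, -0.0249 and 0.00743 percentile points for H3K9me3, H3K4me3 and H3K27ac.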

How the data were processed

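Per the submitters' processing notes, reads were handled with fastp, BWA, SAMtools, Picard, MACS2 and featureCounts on GRCm39. Not given in the sources used here are versions, settings, any control library, and how reads that map to several places were treated, which bears on duplicated gene arrays. The authors deposited 1 peak list per library, H3K4me3 and H3K27ac as narrow and H3K9me3 as broad peaks. Each peak has a fold enrichment (a ratio made within its library) and the −log10 of a p-value and of a q-value, all the authors' own, used here only to rank or filter peaks within a list. The lists start at a −log10 q of 1.0 for H3K9me3 and about 1.3 for the other marks. They give no depth, so no counting error is given.

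From them, peaks on chromosomes 1 to 19, X and Y were assigned to windows by midpoint, bases under peaks were summed per library, and overlapping peaks (1 bp or more) of a mark's 4 libraries were merged into regions (Python 3.11.15, pandas 2.3.3, numpy 2.4.6). Overlap with a mark means at least 1 bp with a region found in 2 or more of its libraries. Genotypes were compared with exact permutation tests of 2 libraries against 2 and windows with the rest by exact sign-flip permutation over 4 libraries, all two-sided. Merging, overlap and window assignment were tested on simulated lists.

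Regions named were, per window and mark, the 2 found in all 4 libraries with the most bases under peaks in the library with the fewest; per direction, the 2 specific to a genotype with the highest mean percentile of fold; and, per window, up to 3 H3K4me3 regions on H3K9me3 with the widest H3K9me3, each found in all 4 libraries. The windows, comparisons and rule were chosen with earlier results of these data known. The planned count of marks at zinc-finger genes was not made, because the gene and promoter tables at hand are of GRCm38.p6, another build; no sequence is printed for the same reason.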

Additional observations from a re-analysis of the deposited data

Results flagged for a closer look

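The number of H3K4me3 peaks differed between genotypes in opposite directions in different windows. In the chromosome 2 window del-cIDR had 38 and 40 peaks and WT 37 and 36, a log2 ratio of 0.0956. In the chromosome 4 window the counts were 61 and 59 against 64 and 66, a log2 ratio of -0.115, and in the chromosome 12 window 51 and 51 against 56 and 55, a log2 ratio of -0.122. The difference between windows was not tested.

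H3K27ac in the chromosome 2 window was below the rest of the genome in both del-cIDR libraries (0.983 and 0.962 times, in kb per Mb) and above it in both WT libraries (1.14 and 1.33 times). On the log2 scale the mean ratios differed by -0.341, del-cIDR minus WT. This difference was not tested either.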

How the results depend on the processing

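The del-cIDR to WT log2 ratio of the H3K9me3 share kept its direction in 13 of 14 alternatives and reversed to 0.307 at a −log10 q of at least 5. At a −log10 q of at least 2 it was -0.644. There the shares were 3.291% and 2.49% in del-cIDR and 5.852% and 3.183% in WT, with WT replicate 1 again the highest. Leaving out 1 library at a time, it ranged from -0.462 to -0.0624. That range was -0.0558 to -0.0294 for the H3K4me3 share and -0.227 to -0.217 for the H3K27ac share, which kept their direction in all 14 alternatives each. For H3K9me3 covered length the range was -0.0654 to 1.14, the lowest without WT replicate 1. Replicate numbers only name libraries, and same-numbered libraries deviated together with a correlation of 0.113 for H3K9me3, 0.00545 for H3K4me3 and -0.00267 for H3K27ac over bins. With the replicate number as a block, the log2 ratios were -0.263, -0.0426 and -0.222 for the shares of H3K9me3, H3K4me3 and H3K27ac, and 0.531 for covered length (exact sign-flip permutation p = 0.5 each, the smallest that 2 pairs allow).

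Counts of regions specific to a genotype moved most. For H3K9me3 they were 60 as deposited (37 in del-cIDR and 23 in WT), 24 at a −log10 q of at least 5 (23 and 1) and 37 with peaks within 1000 bp merged (28 and 9; 2.85% against 4.96% and 0.915% against 1.01% of all regions). Leaving out 1 library requires a peak in fewer libraries, and gave 185 to 279 for H3K9me3 (without WT replicate 1, 50 in del-cIDR and 186 in WT), 17 to 29 for H3K4me3 and 104 to 123 for H3K27ac. The excess of overlap with H3K9me3 in the windows kept its direction in all 15 alternatives for each active mark. The windows were selected on H3K9me3 density in these same libraries, so this remains a description and cannot serve as a test. The comparison of dense bins and the H3K27ac bins kept their direction in every alternative. These alternatives, and the H3K9me3 widths, bins and ranks without WT replicate 1, were chosen after the data had been seen. Unknown read depth limits every comparison of list lengths.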
